A study of Rhodotorula toruloides with 36 samples.

Results

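The genes described here answered acetate in opposite directions in low and in high nitrogen medium, in Rhodotorula toruloides strain IFO0880. For each gene the acetate ratio was taken as the mean level with acetate over the mean level without it, after 1 CPM (counts scaled to TMM-adjusted library size) was added to both, and averaged as a geometric mean over 48, 64 and 88 h within each nitrogen medium. A gene was taken where this averaged ratio was at least 1.41 in 1 medium and at most 0.71 in the other. Of 8490 catalogue genes 124 met the rule. In 48 of them, called the low-raised genes below, the ratio was raised in low and lowered in high nitrogen, and in 76, called the low-lowered genes, it was lowered in low and raised in high nitrogen. All 124 passed the filter on low counts, which 8314 genes passed and 176 did not. Acetate ratios chose the genes, so they are given as a description with no test. Effects of nitrogen and of time, and changes of the acetate effect with time, were tested.

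R. toruloides, a red yeast of the basidiomycetes, accumulates lipid under nitrogen limitation when carbon is plentiful. In yeasts, acetate enters metabolism as acetyl-CoA, the building block of fatty acids and the fuel of the tricarboxylic acid and glyoxylate cycles. Ammonium and other nitrogen sources set which genes of nitrogen uptake and amino acid metabolism are transcribed. The gene catalogue carries numbers only, and no identifier matched the RefSeq gene table of strain NP11 that was at hand (0 of 8490). No function, name or sequence can therefore be given for any of these genes, and each is identified by its mRNA and protein number and its position in the version 4 assembly of IFO0880.

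Messenger RNA was sequenced from 36 libraries in 12 groups of 3 biological replicates. Cultures of low nitrogen (0.1 g/L ammonium sulfate, with 0.75 g/L yeast extract in the design text) or high nitrogen (5 g/L in the treatment protocol, 10 g/L in the design text) held 2 g/L acetate or none, and were sampled at 48, 64 and 88 h. No yeast extract level is stated for high nitrogen, so nitrogen cannot be told apart from a difference in yeast extract. All cultures were of 1 strain and came from 3 colonies grown in glucose medium, each divided among 4 flasks, and the labels tie neither replicate numbers to colonies nor times to flasks. On that description the flasks were fewer than the 36 libraries, so some flasks gave more than 1 library. The tests treated all 36 libraries as independent. Their p-values, for nitrogen as for time, thus take no account of shared flasks or colonies.

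Library totals lay between 10173719 and 63311529 counts, and replicates varied beyond counting error (chi-square per degree of freedom 8.05 to 151 over the pairs). Each of 4 libraries lay far from the other two replicates of its group. These were replicate 3 of high nitrogen with acetate at 48 h, replicate 1 of low nitrogen without acetate at 64 h, and replicate 2 of high nitrogen without acetate at 64 h and at 88 h. Without these 4 libraries the rule gave 47 low-raised genes, 41 of them among the 48, and 74 low-lowered genes, 67 of them among the 76. The membership also rested on the scaling of the libraries. With library totals alone in place of TMM factors, 85 low-raised and 52 low-lowered genes met the rule, of which 42 and 49 were among the genes described.

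**Figure D1:**
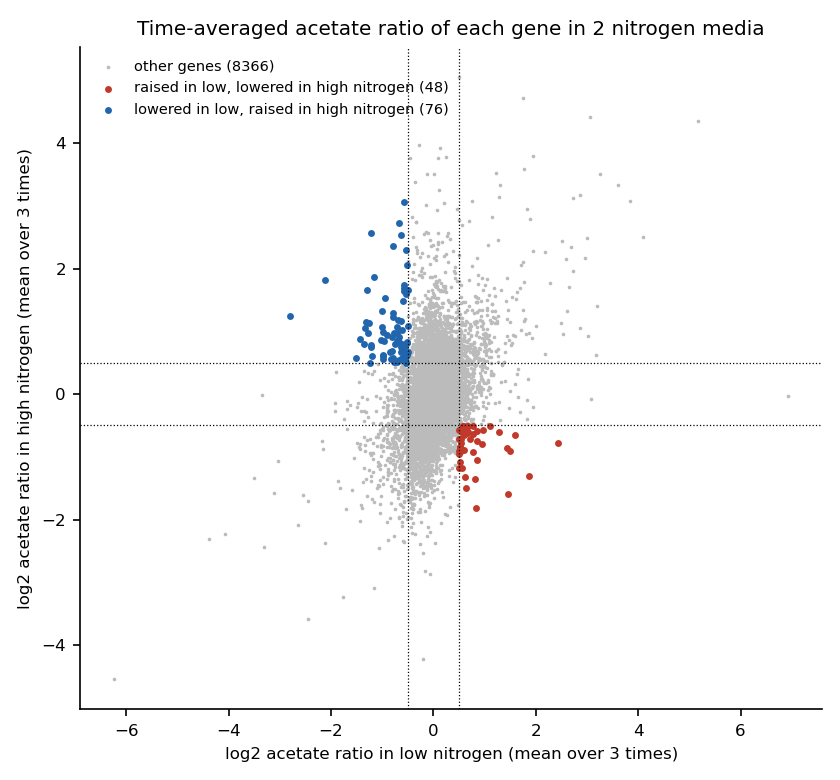
Each point is a gene, placed by its log2 acetate ratio averaged over 48, 64 and 88 h in low nitrogen (x axis) and high nitrogen (y axis), with dotted lines at ratios of 1.41 and 0.71. The 48 low-raised genes (red) lie at the lower right and the 76 low-lowered genes (blue) at the upper left, beside many more genes that moved the same way in both media.

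Opposite ratios were the rarer outcome among genes that passed the thresholds in both media. At the same thresholds 331 genes were raised in both media and 296 were lowered in both. The low-raised genes made up 0.565% and the low-lowered genes 0.895% of the catalogue. They were 6.77% of the 709 genes raised in low nitrogen and 2.95% of the 1629 lowered in high nitrogen, for the low-raised genes, and 12.5% of the 607 lowered in low nitrogen and 4.56% of the 1668 raised in high nitrogen, for the low-lowered genes.

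The low-raised genes had averaged ratios of 1.41 to 5.38 in low nitrogen, with a median of 1.57, and of 0.285 to 0.707 in high nitrogen, with a median of 0.608. The low-lowered genes had ratios of 0.144 to 0.709 in low nitrogen, with a median of 0.609, and of 1.42 to 8.33 in high nitrogen, with a median of 1.83. The effect was the larger one in low nitrogen for 26 and in high nitrogen for 22 low-raised genes. Among low-lowered genes it was the larger one in low nitrogen for 28 and in high nitrogen for 48.

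Averaged over times, low nitrogen with acetate gave the highest level of 27 low-raised genes, and high nitrogen without acetate gave that of the other 21. The lowest level of low-raised genes was in low nitrogen without acetate for 24 and in high nitrogen with acetate for 24. Low nitrogen without acetate gave the highest level of 27 low-lowered genes and high nitrogen with acetate that of 49. The lowest level of low-lowered genes was in low nitrogen with acetate for 50 and in high nitrogen without acetate for 26. The rule uses the same averages and leaves only these media possible for the highest and the lowest level. Only the split of the genes between them was not fixed by the rule.

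The average over times hid differences between times. The ratio was above 1 in low and below 1 in high nitrogen at all 3 times in 27 of the 48 low-raised genes, at 2 times in 19 and at 1 time in 2. Over all catalogue genes 2.84% had that pattern at all 3 times. In the low-lowered genes the reverse pattern stood at all 3 times in 39 of 76, at 2 times in 32 and at 1 time in 5, beside 3.92% of all catalogue genes. The rule fixes much of these counts, and nothing is read from them. The low against high difference was largest at 48 h in 20, at 64 h in 10 and at 88 h in 18 low-raised genes, and at 48 h in 34, at 64 h in 17 and at 88 h in 25 low-lowered genes.

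**Figure D2:**
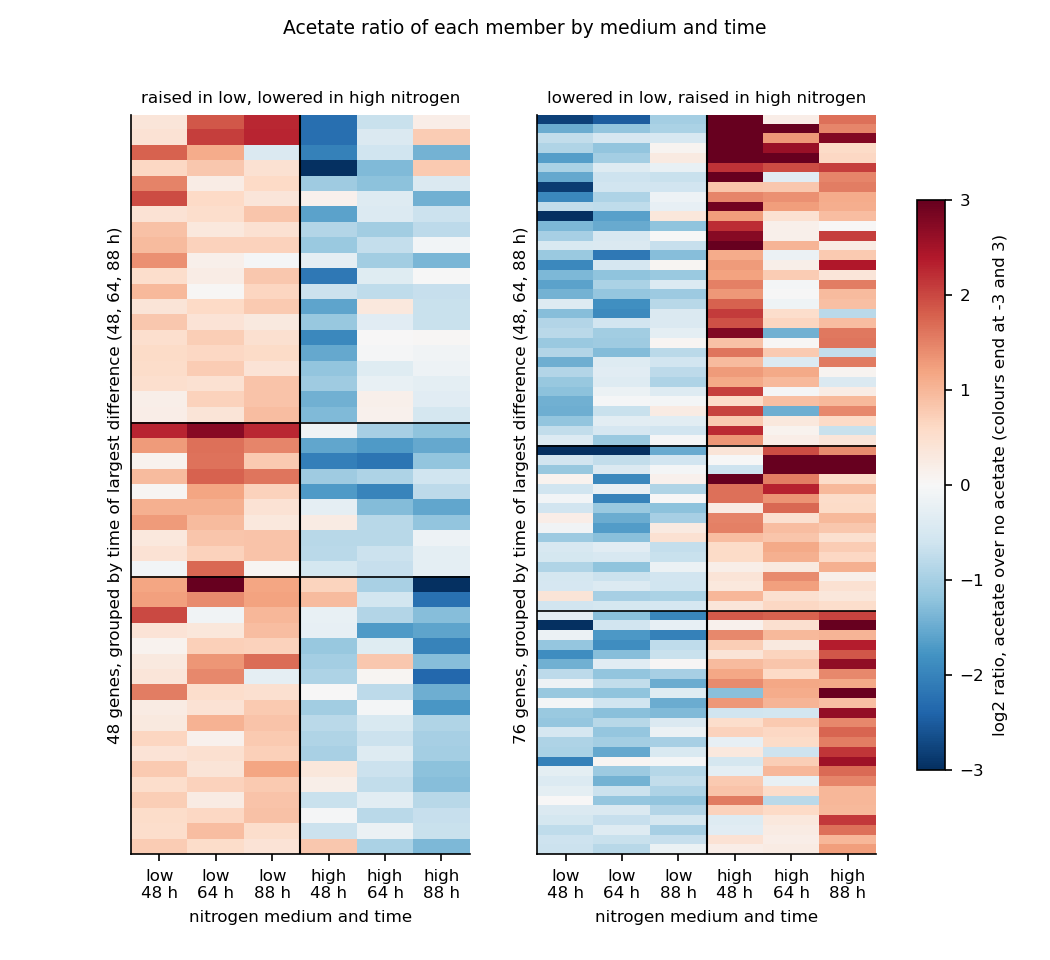
Each row is a gene, grouped by the time of its largest low against high difference, and each column a medium and time; colour gives the log2 ratio of acetate over no acetate. At 48 h, 47 of 48 low-raised genes had a ratio above 1 in low nitrogen and 40 a ratio below 1 in high nitrogen, while 72 of 76 low-lowered genes had one below 1 in low nitrogen and 67 one above 1 in high nitrogen.

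The genes of each set were divided by the time at which their own difference was largest, and the 12 genes below are the 2 with the largest difference at that time in each division, among those with a mean of at least 10 CPM in their highest group. A gene named for 1 time can therefore differ more at another time than the genes named for it. Levels are TMM-scaled CPM in replicates 1, 2 and 3, and differences are in log2 of CPM plus 1, with the SE from the spread of 3 replicates per group. The libraries that stood apart from their group are kept in these levels and are not pointed out for every gene.

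Among the low-raised genes with their largest difference at 48 h, mRNA_5898 (protein 14266; scaffold 5, 1194781 to 1196411, plus strand, 3 exons) had 75.1, 82.9 and 77.9 CPM with acetate and 52.9, 48.7 and 51.8 CPM without it in low nitrogen at that time. In high nitrogen at 48 h it had 0.473, 0.474 and 1.61 CPM with acetate and 18.7, 20.4 and 16.6 CPM without it. The acetate and no-acetate libraries did not overlap in either medium, and the low against high difference of the log2 ratio was 4.01 ± 0.29. By 88 h mRNA_5898 had 13.8, 14.5 and 14.2 CPM with acetate and 8.11, 6.51 and 8.85 CPM without it in high nitrogen, so that the ratio there was above 1 and the opposite pattern had gone. The library with 1.61 CPM is one of those that stood apart.

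mRNA_7203 (protein 15571; scaffold 7, 1116549 to 1118130, plus strand, 2 exons) had 17.6, 14.6 and 13.0 CPM with acetate and 3.89, 4.33 and 3.01 CPM without it in low nitrogen at 48 h. Its high-nitrogen levels at 48 h were 1.03, 1.77 and 2.30 CPM with acetate and 9.41, 11.9 and 8.91 CPM without it. The groups did not overlap in either medium and the difference was 3.79 ± 0.29. At 88 h mRNA_7203 had a log2 ratio below 0 in both media, -0.44 ± 0.18 in low and -1.43 ± 0.39 in high nitrogen.

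Among the low-raised genes with their largest difference at 64 h, mRNA_3997 (protein 12365; scaffold 2, 1108817 to 1109797, minus strand, 4 exons) had 13.1, 20.4 and 16.7 CPM with acetate and 4.86, 4.76 and 4.61 CPM without it in low nitrogen at 64 h. High-nitrogen cultures at 64 h had 17.0, 27.5 and 24.7 CPM with acetate and 87.1, 183 and 54.8 CPM without it. The difference was 3.81 ± 0.57, and it was 3.20 without the library at 183 CPM, which stood apart from its group. mRNA_3997 thus had its highest libraries in high nitrogen without acetate, where it reached 213 CPM at 88 h.

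mRNA_6184 (protein 14552; scaffold 6, 202098 to 203824, minus strand, 4 exons) had the highest averaged ratio of the low-raised genes in low nitrogen, 5.38. At 64 h it had 23.3, 25.9 and 16.3 CPM with acetate and 2.09, 2.69 and 2.46 CPM without it in low nitrogen. The high-nitrogen levels were 7.32, 6.09 and 6.99 CPM with acetate and 13.2, 19.6 and 11.0 CPM without it. The difference was 3.74 ± 0.32, and in low nitrogen the libraries with acetate stood above those without it at all 3 times. In high nitrogen they overlapped at 48 h. mRNA_6184 overlaps mRNA_6185 on the other strand; the strand setting of the counting is not given in the sources used here, so reads of the pair may not be separated.

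At 88 h the largest difference of the low-raised genes was that of mRNA_6023 (protein 14391; scaffold 5, 1470254 to 1472430, plus strand, 7 exons), which overlaps mRNA_6022 on the other strand. In low nitrogen it had 11.7, 13.0 and 17.0 CPM with acetate and 5.84, 5.96 and 5.01 CPM without it at 88 h. With high nitrogen the levels were 9.98, 9.93 and 10.4 CPM with acetate and 157, 77.8 and 169 CPM without it, and the difference was 4.79 ± 0.39. Its difference at 64 h was 4.22 ± 0.53, within its error of those of mRNA_3997 and mRNA_6184 at that time. At 48 h mRNA_6023 was higher with acetate in both media, with log2 ratios of 1.17 ± 0.10 in low and 0.67 ± 0.22 in high nitrogen.

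mRNA_2663 (protein 11031; scaffold 14, 707511 to 708700, minus strand, 6 exons) had 12.3, 13.6 and 15.8 CPM with acetate and 5.78, 4.87 and 5.71 CPM without it in low nitrogen at 88 h. At the same time the high-nitrogen libraries held 41.4, 47.0 and 41.7 CPM with acetate and 173, 269 and 183 CPM without it. The difference was 3.44 ± 0.24, beside 3.47 ± 0.33 for mRNA_6184 at 88 h, and at 48 h the high-nitrogen ratio of mRNA_2663 was above 1, at 0.96 ± 0.18 on the log2 scale. Of these 6 low-raised genes, mRNA_5898 at 88 h and mRNA_6023 and mRNA_2663 at 48 h had log2 ratios above 0 in both media.

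Among the low-lowered genes, mRNA_5646 (protein 14014; scaffold 5, 586349 to 588423, minus strand, 6 exons) had the largest difference at 48 h. It had 7.30, 4.85 and 5.22 CPM with acetate and 43.7, 44.2 and 51.0 CPM without it in low nitrogen. Under high nitrogen it had 231, 171 and 49.2 CPM with acetate and 9.45, 9.82 and 15.0 CPM without it. The difference was -6.41 ± 0.73, and the library at 49.2 CPM, which stood apart from its group, was still above all 3 libraries without acetate. By 64 h the high-nitrogen libraries of mRNA_5646 with and without acetate overlapped.

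mRNA_6540 (protein 14908; scaffold 6, 1031966 to 1033668, minus strand, 3 exons) had 12.2, 9.34 and 8.21 CPM with acetate and 18.7, 18.6 and 20.5 CPM without it in low nitrogen at 48 h. Its levels in high nitrogen were 904, 661 and 335 CPM with acetate and 17.3, 17.6 and 21.9 CPM without it. The difference was -5.88 ± 0.46, most of it from high nitrogen, where the log2 ratio was 4.99 ± 0.43. At 88 h the high-nitrogen ratio of mRNA_6540 was 0.57 ± 0.14 on the log2 scale and the low-nitrogen libraries with and without acetate overlapped.

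mRNA_7939 (protein 16307; scaffold 9, 58388 to 59651, plus strand, 6 exons) had few counts in low nitrogen with acetate, where the 3 libraries held 7 counts in all at 48 h and 4 at 64 h. At 64 h it had 0, 0.0964 and 0.111 CPM with acetate and 8.63, 13.5 and 11.0 CPM without it in low nitrogen. In high nitrogen it had 5.11, 3.93 and 3.57 CPM with acetate and 0.221, 0.354 and 0.468 CPM without it. The groups did not overlap in either medium. With so few counts the size of the difference rests on the value added to the CPM, and it was -5.44 ± 0.23 with 1 CPM added, -6.82 with 0.5 CPM and -2.45 with 5 CPM.

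mRNA_4318 (protein 12686; scaffold 2, 1892804 to 1894044, minus strand, 7 exons) had 2.51, 3.37 and 3.16 CPM with acetate and 5.54, 6.17 and 5.48 CPM without it in low nitrogen at 64 h. High-nitrogen libraries at 64 h had 93.0, 103 and 130.3 CPM with acetate and 3.68, 3.45 and 6.43 CPM without it. The difference was -5.06 ± 0.29. At 48 h mRNA_4318 had 4.81, 4.49 and 4.02 CPM with acetate and 4.36, 3.42 and 5.68 CPM without it in high nitrogen, where the groups overlapped, so its high level with acetate was seen at 64 and 88 h.

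At 88 h mRNA_6406 (protein 14774; scaffold 6, 736897 to 739297, plus strand, 10 exons) had the largest difference, -4.59 ± 0.35. In low nitrogen at 88 h it had 699, 738 and 577 CPM with acetate and 924, 839.9 and 614 CPM without it, and these libraries overlapped. The high-nitrogen levels at 88 h were 1876, 2059.6 and 2284 CPM with acetate and 128, 68.3 and 106 CPM without it. In low nitrogen the log2 ratio of mRNA_6406 was farthest from 0 at 48 h, at -3.08 ± 0.20, with 9.77, 7.83 and 9.57 CPM with acetate and 70.0, 77.4 and 105 CPM without it.

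mRNA_4021 (protein 12389; scaffold 2, 1178215 to 1180562, plus strand, 10 exons) had 4.30, 3.48 and 6.05 CPM with acetate and 14.8, 29.4 and 18.1 CPM without it in low nitrogen at 88 h. For high nitrogen the levels were 20.3, 21.1 and 21.9 CPM with acetate and 3.46, 5.10 and 4.82 CPM without it. The difference was -3.97 ± 0.37. For mRNA_4021 the libraries with and without acetate did not overlap at any of the 3 times in either medium.

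**Figure D3:**
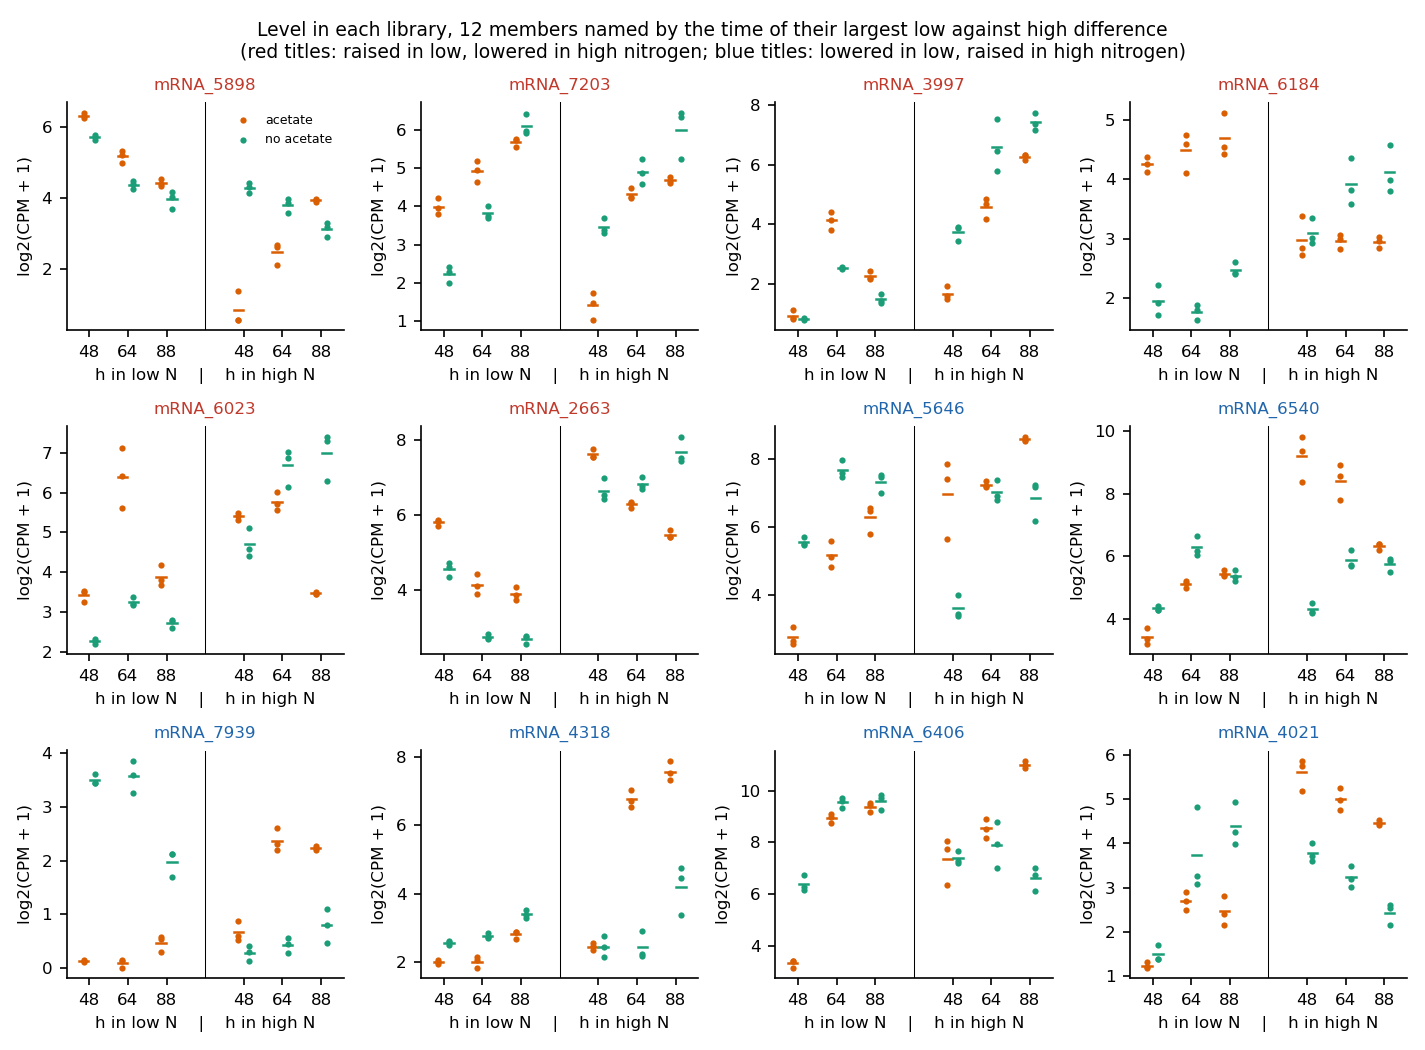
Points are log2 of CPM plus 1 in each of 36 libraries for the 12 genes described, with low nitrogen left and high nitrogen right of the line in each panel, acetate in orange left of no acetate in green, and bars at the mean of 3 replicates. mRNA_6540 reached 904 CPM at 48 h in high nitrogen with acetate, and the gap between orange and green points of most genes differs between times.

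At the edge of the rule, mRNA_3660 was the low-raised gene closest to its threshold, with averaged ratios of 1.41 in low and 0.518 in high nitrogen. mRNA_3150, with 1.66 in low and 0.710 in high nitrogen, was the gene closest to it outside. On the other side mRNA_8476, with 0.709 in low and 3.15 in high nitrogen, was just inside, and mRNA_4990, with 0.711 and 1.44, just outside.

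The remaining results were tested with edgeR's quasi-likelihood F-test over all 8314 genes, with Benjamini-Hochberg adjustment and a call at adjusted p below 0.05. The contrasts carry no weight on the averaged acetate effects of the rule, though they use the same libraries. The named genes are those with the highest and the lowest log2 fold change among called genes of each set, so their sizes are the extremes of many. Only genes with at least 10 CPM in their highest group were named.

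Averaged over acetate and times, the low-raised genes had no common direction between the nitrogen media. Of 48, 23 were higher and 19 lower in low than in high nitrogen, and 6 were not called, beside 41.8% higher and 45% lower among all genes tested. The split with library totals alone was 19 higher and 25 lower. The median log2 fold change was 0.05, against -0.03 over all genes, and the sign of the set's median flipped to -0.19 with library totals, where that of all genes was -0.26. Of 76 low-lowered genes 21 were higher and 45 lower in low nitrogen and 10 were not called, with a median of -0.56.

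The extremes of the nitrogen contrast were large. Their SE and p-values count 18 libraries per medium as independent, though fewer flasks than libraries were described. In the low-raised set mRNA_2553 (protein 10921; scaffold 14, 428822 to 431100, minus strand) had between 485 and 1792 CPM in 18 low-nitrogen libraries, with a median of 860.1, and between 6.71 and 45.2 CPM in 18 high-nitrogen libraries, with a median of 11.7. The media did not overlap, and the log2 fold change was 5.93 (SE 0.10, adjusted p = 2.52e-29). The same set held mRNA_3997, described above, at -3.55 (SE 0.13, adjusted p = 7.92e-21), with 0.713 to 20.4 CPM and a median of 2.81 in low nitrogen, against 1.81 to 213 CPM and a median of 41.1 in high nitrogen.

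In the low-lowered set mRNA_4457 (protein 12825; scaffold 3, 230802 to 232972, plus strand, 10 exons) had 0.675 to 8.91 CPM with a median of 3.53 in low-nitrogen libraries, and 375 to 4385 CPM with a median of 2387 in high-nitrogen libraries. The media did not overlap, and the log2 fold change was -8.97 (SE 0.24, adjusted p = 9.99e-25), the lowest of the set. Its acetate ratio in low nitrogen thus describes a gene at a few CPM. At the other end mRNA_4185 (protein 12553; scaffold 2, 1561909 to 1564083, plus strand) had 81.7 to 299 CPM with a median of 143 in low nitrogen, and 16.0 to 39.0 CPM with a median of 18.6 in high nitrogen, and its log2 fold change was 2.88 (SE 0.07, adjusted p = 6.83e-25).

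Most low-lowered genes rose with time in low nitrogen. Between 88 and 48 h, over both acetate levels, 59 of 76 low-lowered genes rose in low nitrogen, 2 fell and 15 were not called, with a median log2 fold change of 0.92. Of 48 low-raised genes 12 rose and 26 fell, and 10 were not called, with a median of -0.47. Among all genes tested 41.8% rose and 39.1% fell, with a median of 0.04. With library totals alone the median of all genes was -0.21, and the sets' medians were 0.68 and -0.72 for the low-lowered and the low-raised genes.

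In high nitrogen 40 of 76 low-lowered genes rose with time and 20 fell, with a median of 0.49, and 21 of 48 low-raised genes rose and 14 fell, with a median of 0.25. Over all genes 32.1% rose and 34.1% fell. In the low-lowered set 35 genes rose in both media and 15 rose in low and fell in high nitrogen. In the low-raised set 8 rose in both, 11 fell in both and 7 fell in low and rose in high nitrogen. The shares of all genes with the same joint calls were not computed, so nothing is read from these joint counts.

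mRNA_7203 rose most among the low-raised genes in low nitrogen. It had 46.2 to 85.6 CPM with a median of 56.5 at 88 h, and 3.01 to 17.6 CPM with a median of 8.65 at 48 h, in 6 libraries each. The groups did not overlap, and the log2 fold change was 2.93 (SE 0.18, adjusted p = 2.93e-15). In the same set mRNA_2998 (protein 11366; scaffold 16, 41514 to 43008, plus strand) had 1.68 to 5.86 CPM with a median of 3.82 at 88 h against 12.1 to 23.3 CPM with a median of 18.3 at 48 h, and fell by 2.29 (SE 0.14, adjusted p = 2.37e-15).

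Of the low-raised genes mRNA_3997 rose most in high nitrogen, with 69.8 to 213 CPM and a median of 111 at 88 h, against 1.81 to 13.8 CPM and a median of 6.30 at 48 h. Its log2 fold change was 4.44 (SE 0.21, adjusted p = 7.99e-17). mRNA_1607 (protein 9975; scaffold 11, 706092 to 709782, plus strand) fell by 1.53 (SE 0.15, adjusted p = 2.48e-10), with 3.37 to 6.62 CPM at 88 h and 5.69 to 31.7 CPM at 48 h, and these ranges overlapped. Its log2 acetate ratio in high nitrogen was -1.94 at 48 h and 0.04 at 88 h, so the fall was larger without acetate.

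mRNA_1652 (protein 10020; scaffold 11, 812237 to 813355, plus strand) rose most of the low-lowered genes in both media. In low nitrogen it had 30.3 to 199 CPM with a median of 73.9 at 88 h, against 0.339 to 3.95 CPM with a median of 1.75 at 48 h, and the log2 fold change was 5.71 (SE 0.51, adjusted p = 1.82e-11). In high nitrogen it had 18.3 to 163 CPM with a median of 86.1 at 88 h, against 0 to 1.14 CPM with a median of 0.0341 at 48 h, and the fitted log2 fold change was 8.91 (SE 0.72, adjusted p = 7.98e-12). The 3 high-nitrogen libraries with acetate held 19676 counts of mRNA_1652 at 88 h and 2 at 48 h, a ratio of scaled counts of 6379 with a 95% Poisson interval of 1766 to 52675, so the fitted folds rest on few counts. Without replicate 2 of high nitrogen without acetate at 48 h the fitted log2 fold change was 9.55. mRNA_7626, which overlaps mRNA_7625 on the same strand, fell most of its set in low nitrogen, by 1.11 (SE 0.07, adjusted p = 7.85e-15), with 18.8 to 31.2 CPM at 88 h and 35.1 to 83.6 CPM at 48 h. In high nitrogen mRNA_3330, which overlaps mRNA_3331 on the other strand, fell by 1.46 (SE 0.19, adjusted p = 1.09e-07), with 5.07 to 12.8 CPM at 88 h and 4.86 to 103 CPM at 48 h, and these ranges overlapped. The log2 acetate ratio of mRNA_3330 in high nitrogen was 3.54 at 48 h and 0.25 at 88 h. This averaged fall was thus that of the cultures with acetate.

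The change with time was also compared between the media. It was lower in low than in high nitrogen for 30 and higher for 6 of 48 low-raised genes, with a median difference of -0.84, and higher for 39 and lower for 18 of 76 low-lowered genes, with a median of 0.45. Over all genes 35.7% were higher and 35.1% lower, with a median of 0.02, or -0.25 with library totals alone. By direction, 62.5% of low-raised genes were lower and 12.5% higher, and 51.3% of low-lowered genes were higher and 23.7% lower. Of the low-raised genes 12 of 48 were not called, and of the low-lowered genes 19 of 76. Only with both directions counted together did the share called lie near that of all genes. mRNA_4442 (protein 12810; scaffold 3, 188576 to 190157, plus strand, 2 exons) showed the highest difference of the low-raised genes at 2.16 (SE 0.13, adjusted p = 1.11e-14), with 157 to 481 CPM at 88 h and 24.5 to 75.1 CPM at 48 h in low nitrogen, and 6.48 to 24.2 CPM at 88 h and 4.35 to 16.6 CPM at 48 h in high nitrogen. Its opposite acetate ratios stood without overlap at all 3 times, with log2 differences of 2.84 ± 0.15, 3.35 ± 0.26 and 3.00 ± 0.11.

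mRNA_5898 lay at the other end, at -3.32 (SE 0.21, adjusted p = 2.57e-14), with 11.7 to 22.2 CPM at 88 h and 48.7 to 82.9 CPM at 48 h in low nitrogen, and 6.51 to 14.5 CPM at 88 h and 0.473 to 20.4 CPM at 48 h in high nitrogen. By the levels given above, mRNA_5898 rose with acetate and fell without it in high nitrogen. This value is therefore not separate from the change of its acetate effect given below. Among low-lowered genes mRNA_4021 had the highest difference, 3.96 (SE 0.35, adjusted p = 4.91e-11), with 3.48 to 29.4 CPM at 88 h and 1.27 to 2.25 CPM at 48 h in low nitrogen, and 3.46 to 21.9 CPM at 88 h and 11.1 to 57.2 CPM at 48 h in high nitrogen. mRNA_1652 had the lowest, -3.20 (SE 1.34, adjusted p = 0.0343), and this call was lost when any of 7 libraries at 48 h was left out (adjusted p of 0.0559 to 0.0774). They were replicate 2 of low nitrogen without acetate, replicate 1 of high nitrogen without acetate, replicates 1 and 2 of low nitrogen with acetate, and all 3 of high nitrogen with acetate.

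**Figure D4:**
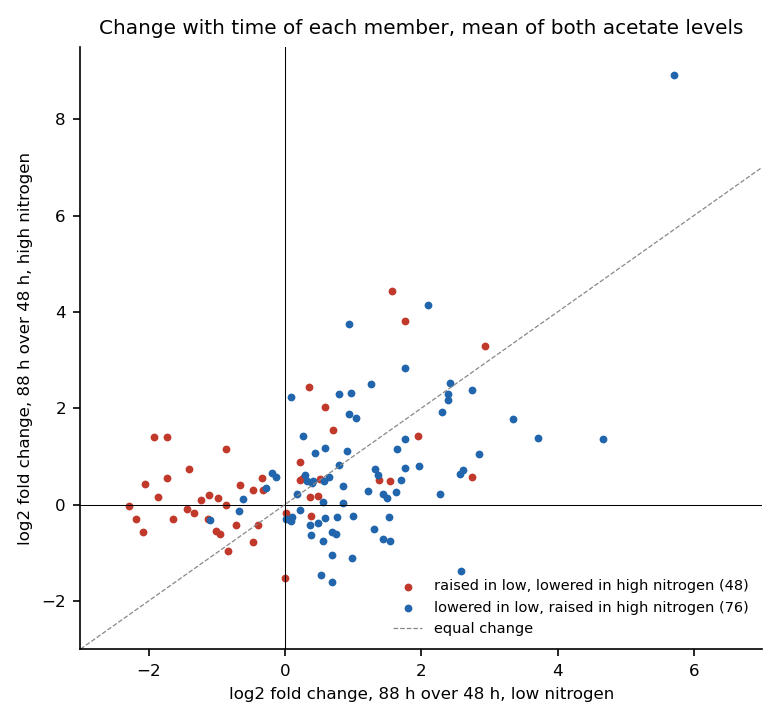
Each point is a gene, placed by its log2 fold change between 88 and 48 h in low nitrogen (x axis) and in high nitrogen (y axis), over both acetate levels; the dashed line marks equal change. Low-lowered genes (blue) lie mostly right of 0, where 59 of 76 were called, and 26 of 48 low-raised genes (red) were called left of 0.

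The size of the acetate effect itself changed between 48 and 88 h. In low nitrogen the effect was higher at 88 than at 48 h in 27 and lower in 11 of 76 low-lowered genes, with a median change of 0.54, and higher in 10 and lower in 7 of 48 low-raised genes, with a median of 0.18. Over all genes 24.1% were higher and 18.4% lower. With library totals alone the low-raised split was 6 higher and 9 lower, and fitted to the compared groups only it was 15 higher and 11 lower, 26 calls in place of 17. A positive change in a low-lowered gene means that its acetate ratio was higher at 88 h. This was a smaller lowering or a ratio above 1, which 11 of 76 had in low nitrogen at 88 h.

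mRNA_5088 (protein 13456; scaffold 3, 1722157 to 1723931, minus strand, 5 exons) had the largest gain among low-raised genes in low nitrogen. At 88 h it had 229, 300.5 and 336 CPM with acetate and 60.3, 70.6 and 46.5 CPM without it, and at 48 h 192, 171 and 179 CPM with acetate and 133, 143 and 143 CPM without it. The acetate effect was larger at 88 h by 1.92 (SE 0.32, adjusted p = 1.31e-05). For mRNA_7203 it was smaller at 88 h, with a change of -2.44 (SE 0.34, adjusted p = 1.15e-06). Among low-lowered genes mRNA_7939 changed by 3.80 (SE 0.66, adjusted p = 2.44e-05), and mRNA_2744 (protein 11112; scaffold 15, 120762 to 122799, plus strand, 2 exons) by -1.88 (SE 0.15, adjusted p = 6.10e-11). The fitted size for mRNA_7939 rests on 7 counts in low nitrogen with acetate at 48 h. With 1 CPM added its log2 ratios in low nitrogen were -3.38 at 48 h and -1.52 at 88 h. In low nitrogen mRNA_2744 had 27.8, 25.0 and 23.0 CPM with acetate and 105, 101 and 113 CPM without it at 88 h, and 25.6, 24.3 and 27.7 CPM with acetate and 30.8, 29.0 and 28.9 CPM without it at 48 h.

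In high nitrogen the effect was higher at 88 h in 19 and lower in 16 low-raised genes, and higher in 22 and lower in 29 low-lowered genes, beside 33.8% higher and 34% lower among all genes. The medians were 0.01 for the low-raised and -0.17 for the low-lowered genes. With library totals alone 13 low-raised genes were higher and 16 lower, and the medians were -0.32 and -0.51, where the median of all genes was -0.33. Among low-raised genes mRNA_5898 had the highest change, 5.35 (SE 0.32, adjusted p = 1.67e-14). Its log2 ratio went from -3.40 at 48 h to 0.78 at 88 h, so its lowering was lost and reversed. The change was 6.15 when replicate 3 of its 48 h acetate group was left out. mRNA_6023 had the lowest change, -4.41 (SE 0.40, adjusted p = 1.18e-10). Its log2 ratio went from 0.67 at 48 h to -3.61 at 88 h, from raised to lowered. Both genes were also named for their ratios at 48 or 88 h, so these values are not independent of that choice.

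Among low-lowered genes with at least 10 CPM in their highest group, mRNA_6540 had the lowest called change in high nitrogen, -4.45 (SE 0.36, adjusted p = 1.30e-11). The lowest value of the whole set was -4.66. mRNA_1652 had the largest gain, 7.00 (SE 2.33, adjusted p = 0.00937). Without replicate 2 of high nitrogen without acetate at 48 h its gain was 5.71 and was not called (adjusted p = 0.142).

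The change of the acetate effect differed between the media in 21 low-raised genes, 9 higher and 12 lower in low nitrogen, and in 50 low-lowered genes, 32 higher and 18 lower. Over all genes 24.8% were higher and 23% lower. With library totals alone the low-raised split was 11 higher and 8 lower and the sign of its median flipped, from -0.10 with TMM to 0.13. mRNA_7938 (protein 16306; scaffold 9, 55876 to 58183, minus strand, 6 exons) had the highest value of the low-lowered genes, 6.14 (SE 0.56, adjusted p = 7.49e-10), or 5.43 without replicate 1 of high nitrogen without acetate at 88 h. At 48 h mRNA_7938 had 10.2, 11.1 and 11.5 CPM with acetate and 40.3, 34.1 and 34.9 CPM without it in low nitrogen, and at 88 h these groups overlapped. The high-nitrogen levels were 5.22, 3.84 and 3.80 CPM with acetate and 4.16, 1.76 and 1.34 CPM without it at 88 h, against 18.5, 11.3 and 12.0 CPM with acetate and 0.442, 0.554 and 0.384 CPM without it at 48 h.

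mRNA_4132 (protein 12500; scaffold 2, 1425478 to 1426122, minus strand, 4 exons) had the lowest called value of the low-lowered genes with at least 10 CPM in their highest group, -3.57 (SE 0.31, adjusted p = 4.15e-10). The lowest value of the whole set was -6.41, in a gene not named here. For mRNA_4132 the levels follow. In low nitrogen it had 8.36, 8.16 and 8.31 CPM with acetate and 11.7, 10.7 and 10.1 CPM without it at 88 h, and 2.88, 2.66 and 3.26 CPM with acetate and 7.78, 8.37 and 6.85 CPM without it at 48 h. In high nitrogen mRNA_4132 had 90.3, 69.0 and 59.9 CPM with acetate and 8.17, 10.4 and 7.11 CPM without it at 88 h, and 3.79, 3.29 and 5.15 CPM with acetate and 10.5, 10.8 and 11.8 CPM without it at 48 h. Acetate thus went with a lower level of mRNA_4132 at 48 h and a higher one at 88 h in high nitrogen. In the low-raised set mRNA_6023 had 4.34 (SE 0.60, adjusted p = 1.09e-06) and mRNA_5898 -5.51 (SE 0.41, adjusted p = 1.87e-11), which was -6.29 without replicate 3 of high nitrogen with acetate at 48 h.

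**Figure D5:**
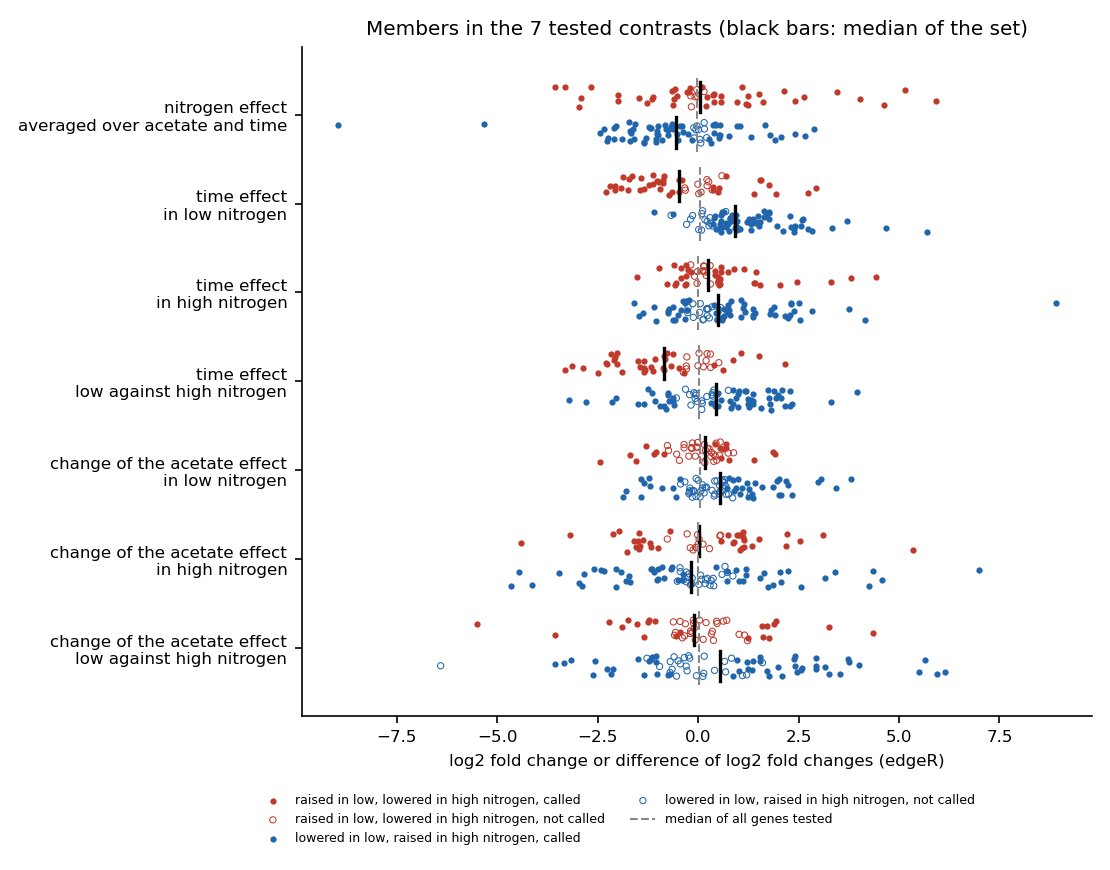
Each row is a tested contrast and each point a gene, at its log2 fold change or difference of log2 fold changes; filled points were called at adjusted p below 0.05, black bars are set medians and dashed lines the median of all genes. The low-lowered genes (blue) have a median of 0.92 and the low-raised genes (red) of -0.47 for the time effect in low nitrogen.

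The genes of a set did not share 1 profile. Pearson's r of log2 levels over the 36 libraries, which share nitrogen, acetate and time, had a median of 0.286 over 1128 pairs of low-raised genes, 0.449 over 2850 pairs of low-lowered genes and -0.324 over 3648 pairs with 1 gene of each set. It was at least 0.8 in 78, 176 and 10 of these pairs. The rule used the same libraries, so the signs of these medians are a description. The gene most like mRNA_3997 was mRNA_4006, with r of 0.994, and the one most like mRNA_2663 was mRNA_5099, with 0.936. Among low-lowered genes mRNA_5646 was closest to mRNA_5702, with 0.932, and mRNA_4318 to mRNA_4975, with 0.926.

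Gene structure was compared with the catalogue without a test. Median coding length was 1405.5 bp in low-raised, 1158 bp in low-lowered and 1218 bp in all catalogue genes, and the median number of exons was 5, 7 and 5. Single-exon genes numbered 4 of 48, 1 of 76 and 431 of 8490, or 8.33%, 1.32% and 5.08%. Genes with 20 or more exons were 0 of 48, 3 of 76 and 67 of 8490, the last 2 being 3.95% and 0.789%. A gene on the other strand overlapped 9 low-raised and 8 low-lowered genes, or 18.8% and 10.5%, beside 14.3% of the catalogue. Per kb of exon, the mean level in the highest group had a median of 47.8 CPM in low-raised, 134 CPM in low-lowered and 49.8 CPM in all catalogue genes. The catalogue includes 963 genes under 10 CPM in their highest group, and the sets 3 and 5 such genes. The 1 CPM added by the rule keeps out genes near 0, so nothing is read from these levels.

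The genes were spread over 15 scaffolds in the low-raised and 17 in the low-lowered set, of 21 with genes. No run of 3 neighbours was found, and 4 pairs were adjacent. mRNA_5088 and mRNA_5089, both low-raised and 481 bp apart on the same strand, had r of 0.984. mRNA_7938 and mRNA_7939, both low-lowered, are divergent with 204 bp between them and had r of 0.555. mRNA_950 and mRNA_951, both low-lowered, overlap by 311 bp on the same strand, so their r of 0.992 may include shared reads. mRNA_6576 and mRNA_6577 abut on the same strand and belong to opposite sets, with r of -0.326.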

How the data were processed

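The authors deposited 1 table of counts per library, whole numbers of reads per catalogue gene. Per the labels the values are CPM, but totals differ between libraries and all values are whole, so they were used as raw counts. The submitters' processing notes name Trimmomatic 0.39, FastQC 0.11.9, MultiQC 1.9, STAR 2.7.10a and featureCounts of Subread 2.0.4, without settings; strand and multi-mapping settings are not given in the sources used here. Gene positions come from the deposited annotation of the version 4 assembly.

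The tests used edgeR 4.0.16 in R 4.3.3: TMM factors, filterByExpr, 1 mean for each of 12 groups, quasi-likelihood F-tests on 36 libraries, and Benjamini-Hochberg adjustment over 8314 genes within each of 7 contrasts. The SE of a tested value is its size divided by the square root of F. The genes and the lists were chosen with earlier results of these data known. Genes were named by a rule: per set, the 2 largest differences among the genes whose own difference was largest at each time, the genes nearest the thresholds, and the highest and lowest called value per contrast, at 10 or more CPM in the highest group. Neighbouring and correlated genes were described after their values were seen. Alternatives were RLE factors, library totals, other filters, DESeq2 1.42.0, a replicate block, other samples in the fit, and libraries left out. The tests were tested on simulated data. The labels call the replicates biological and name 3 colonies, without tying replicate numbers to them, so p-values measure the spread between these samples. Intervals cover counting error only, and a level of 3 counts was 0.397 CPM in the shallowest library.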

Additional observations from a re-analysis of the deposited data

Results flagged for a closer look

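In 8 results the 2 nitrogen media differed under the same contrast by a test of the difference itself (edgeR, adjusted over 8314 genes, low minus high nitrogen). For the change between 88 and 48 h these were mRNA_4442 at 2.16 (adjusted p = 1.11e-14), mRNA_5898 at -3.32 (adjusted p = 2.57e-14), mRNA_4021 at 3.96 (adjusted p = 4.91e-11) and mRNA_1652 at -3.20 (adjusted p = 0.0343). For the change of the acetate effect between 88 and 48 h these were mRNA_6023 at 4.34 (adjusted p = 1.09e-06), mRNA_5898 at -5.51 (adjusted p = 1.87e-11), mRNA_7938 at 6.14 (adjusted p = 7.49e-10) and mRNA_4132 at -3.57 (adjusted p = 4.15e-10). These genes were named as the extremes of their set. No test for an outlying value of a single gene was made, since groups held 3 libraries; whole libraries that stood apart from their group are named in the report.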

How the results depend on the processing

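The number of genes that met the rule moved most with the value added to the CPM and with scaling. With 5 CPM added 25 low-raised and 47 low-lowered genes met it, and with library totals alone 85 low-raised genes did. Over 36 fits that each left out 1 library, low-raised genes numbered 43 to 55 and low-lowered genes 72 to 79; 31 of the 48 and 57 of the 76 met the rule in all of them, and 23 and 30 of these also in the 6 other settings. The differences of named genes at 1 time shrank beyond the replicate spread in 8 cases with 5 CPM added. Counts of called low-raised genes (with the low-lowered genes after them) ranged, over the same fits, from 41 to 43 (66 to 68) for nitrogen, 37 to 42 (61 to 65) and 32 to 37 (57 to 63) for time in low and in high nitrogen, 35 to 39 (54 to 60) for their difference, 14 to 20 (33 to 38) and 33 to 37 (47 to 52) for the change of the acetate effect in low and in high nitrogen, and 17 to 21 (47 to 53) for their difference. Fitted to the compared groups only, the change of the acetate effect in low nitrogen was called in 26 low-raised genes in place of 17; the cause was not tested. That fit gives no value for the nitrogen contrast, which uses all groups. No named gene changed direction under any alternative. The median of the low-raised genes changed sign with library totals alone for nitrogen (0.05 to -0.19), for the change of the acetate effect in high nitrogen (0.01 to -0.32) and for its difference between media (-0.10 to 0.13), and the larger side of their calls turned for these and for the change of the acetate effect in low nitrogen. The call of mRNA_1652 for the difference in time effects was lost without the 4 libraries that stood apart (adjusted p = 0.0703). Replicate numbers gave no clear pairing of the libraries: median r was 0.008 for pairs with the same number and -0.004 for pairs with another. Of 198 same-numbered pairs 44 had r over 0.1, and 15 of 36 libraries correlated best with their own number. The numbers are not tied to colonies or flasks, so these values cannot tell which libraries shared them. With a replicate block the nitrogen effect was called in 43 low-raised and 66 low-lowered genes, against 42 and 66 without it.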

Other observations

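Counting the 4 adjacent pairs, 20 of the 124 genes lay at most 5 catalogue positions from another, in 9 groups, of which 5 held genes of 1 set and 4 held genes of both. The largest group was mRNA_947, mRNA_950, mRNA_951 and mRNA_953 on scaffold 10, all low-lowered. This was described after the values were seen, with no test. How many of 124 genes picked without regard to the rule would lie so close was not computed, so no clustering is claimed.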
